A study of Mus musculus with 6 samples.

Results

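Among all the open chromatin regions recorded in liver NK cells and liver ILC1s, 911 of 107945 were accessible in NK cells and at most weakly so, relative to NK cells, in ILC1s. They made up 0.844% of the table. The regions were chosen by their CPM (the fragment count of a region scaled by the total of its library): the lowest of the 3 NK cell libraries had to reach 3 CPM and at least 8 times the highest of the 3 ILC1 libraries, and a region with no fragment in ILC1s passed. A difference between the cell types in these 911 regions is therefore fixed by the choice, and their levels are given as a description without a test.

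Chromatin accessibility was assessed by ATAC-seq, in which the transposase Tn5 inserts sequencing adapters into DNA that is not protected by nucleosomes, so that the fragments recovered from a region measure how open it is. Both cell types were sorted from livers of male C57Bl/6J mice aged 24 weeks, all labelled as controls with no agent named, with 3 libraries per cell type. Liver NK cells were gated as lymphocytes lacking CD3 and F4/80, positive for NK1.1 and negative for CD49a, and liver ILC1s by the same markers with CD49a present. As printed, both gates are CD49b-negative. The sources do not say whether the libraries came from separate animals, so the spread between them may be partly technical.

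NK cells and ILC1s are related innate lymphocytes of the liver. NK cells circulate and kill infected or transformed cells, and their identity depends on the transcription factor Eomes. ILC1s reside in the tissue, secrete cytokines such as interferon gamma and depend on T-bet without Eomes. Regions that are open in one of such closely related cell types and closed in the other are often distal regulatory elements, which are opened by the transcription factors that set the lineage. The regions of the count table carry a running number without gene or position. Their genes, annotation classes, motifs and sequences were not analysed here, and the labelled cell types could not be checked against marker loci.

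The libraries held between 5687282 and 12302602 fragments in regions. Each NK cell library was deeper than each ILC1 library, so depth and cell type went together. With every library thinned to the smallest total, 862 regions met the rule. Among them were 799 (87.7%) of the regions chosen with the full libraries. Effects of depth that thinning of the counts does not remove were not tested. The column names give the cell type but not the numbered sample, and the libraries are therefore called deepest, middle and shallowest within their cell type. Values of single libraries are listed in this order. Depth sets how finely the rule can read a closed region. A level of 3 CPM corresponded to 36.9, 33.8 and 25.6 fragments in the NK cell libraries. An ILC1 library was then allowed at most 0.375 CPM, which is 2.59, 2.29 and 2.13 fragments.

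The 911 regions were moderately accessible in NK cells. Their lowest NK level had a median of 8.37 CPM, with an interquartile range of 4.81 to 16.4 and a highest value of 109. Their mean NK level had a median of 9.87 CPM, against 1.12 CPM over all regions of the table, where no minimum applied. Over the 3 NK cell libraries together, a member held between 104 and 3589 fragments, with a median of 317. Over the 3 ILC1 libraries together, it held between 0 and 128 fragments, with a median of 7. The highest ILC1 level of a member had a median of 0.578 CPM and reached 8.67 CPM, since the rule bounds the ratio and not the ILC1 level. Pooled over libraries, the median NK level was 24.8 times the ILC1 level, and from the 10th to the 90th percentile of members it was 13.9 to 55 times, where the regions without ILC1 fragments were set to the limit of 3 fragments over the group. The highest fold rests on 1 ILC1 fragment and is not given. The plot of mean levels in both cell types shows the members as a band above the main cloud of regions.

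**Figure D1:**
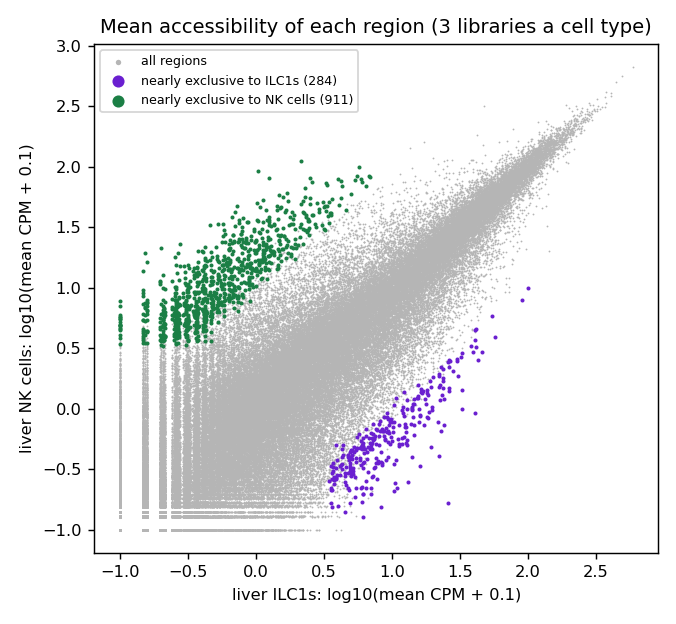
Mean accessibility of every region in liver ILC1s (horizontal axis) and liver NK cells (vertical axis), both as log10 of the mean CPM of 3 libraries plus 0.1. Green points are the 911 regions nearly exclusive to NK cells, violet points the 284 regions that pass the same rule with the cell types exchanged, and grey points all regions. The vertical stripes on the left are regions with 0 or a few fragments in ILC1s.

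As a share of all fragments counted in regions, the members took 1.36%, 1.44% and 1.38% of the NK cell libraries, a mean of 1.39% ± 0.0444 (SD, n = 3). In the ILC1 libraries they took 0.065%, 0.0574% and 0.0645%, a mean of 0.0623% ± 0.00424 (SD, n = 3). The shares were alike in the libraries of a cell type. In such bulk libraries, fewer cells with an open region and less accessibility per cell cannot be told apart.

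The member with the highest lowest-NK level was peak_52567. Its levels were 110, 115 and 109 CPM in the NK cell libraries and 3.61, 0.983 and 1.58 CPM in the ILC1 libraries. The ILC1 values stood for 25, 6 and 9 fragments, so the deepest ILC1 library held more than the other two ILC1 libraries together. The log2 fold change of peak_52567, NK cells over ILC1s, was 5.76 with all libraries and 6.48 without the deepest ILC1 library. The second was peak_105170, with 89.1, 95.5 and 92.6 CPM in NK cells and 0.578, 0.983 and 1.23 CPM in ILC1s. Here the ILC1 libraries held 4, 6 and 7 fragments against 1096, 1077 and 790 in the NK cell libraries. Both regions were steady among the NK cell libraries, with coefficients of variation of 2.88% and 3.47%.

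The next 3 members by level retained more signal in ILC1s. The third had 104, 106 and 88.8 CPM in NK cells and 5.06, 4.59 and 7.38 CPM in ILC1s. The fourth had 82.7, 85.6 and 85.1 CPM in NK cells and 5.64, 4.59 and 5.98 CPM in ILC1s. The fifth had 78.8, 81.9 and 78.7 CPM in NK cells and 6.07, 5.24 and 6.33 CPM in ILC1s. Their pooled folds were 17.9, 15.6 and 13.6, compared with 52.3 for peak_52567 and 102 for peak_105170. Members of nearly equal NK level thus differed several-fold in the level left in ILC1s.

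A complete absence of ILC1 fragments was rare. Of the 911 members, 596 had fragments in all 3 ILC1 libraries, 221 lacked them in 1 library, 76 in 2 libraries and 18 in all 3. The lowest NK level of these 18 did not exceed 5.98 CPM, and the one with the highest lowest-NK level had 7.8, 7 and 5.98 CPM in NK cells, that is 96, 79 and 51 fragments. Against the limit of 3 fragments over the ILC1 libraries, its NK level was at least 43.9-fold higher. The second and the third by this measure had 5.53, 5.23 and 6.1 CPM and 5.12, 5.05 and 7.51 CPM in NK cells and were at least 34.8-fold and at least 35.7-fold higher. In 437 members no ILC1 library held more than 3 fragments, and in 64 members every ILC1 library held at least 10.

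The edge of the group was soft. Of the members, 242 had a ratio of lowest NK to highest ILC1 level between 8 and 10, while 349 regions of sufficient level had a ratio between 6 and 8 and were left out. The members just inside the ratio had 6.58, 8.07 and 5.63 CPM in NK cells against 0.434, 0.655 and 0.703 CPM in ILC1s, and 8.37, 7.36 and 5.63 CPM against 0.434, 0.328 and 0.703 CPM. The regions just outside had 10.2, 9.75 and 7.86 CPM against 0.723, 0.983 and 0.703 CPM, and 5.77, 9.13 and 11 CPM against 0.723, 0.655 and 0.527 CPM. The regions on both sides of this edge thus held similar levels.

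At the edge of level, 7 members tied at the lowest NK level of 3.01 CPM. A pair of them had 3.01, 3.63 and 5.04 CPM and 3.01, 3.19 and 4.69 CPM in NK cells, with 3 fragments and 1 fragment over the ILC1 libraries. The closest regions below the edge had 3.58, 3.55 and 2.93 CPM and 4.96, 6.21 and 2.93 CPM, with 2 fragments and 1 fragment. A single additional fragment in the ILC1 library of the highest level would have removed 235 members. A single fragment less would have added 151 regions.

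How common near-exclusivity was among accessible regions depended on level. A lowest NK level of at least 3 CPM was reached by 33473 regions, and 2.72% of these were members. The share was 3.47% between 3 and 5 CPM, 3.76% between 5 and 10 CPM and 3.47% between 10 and 20 CPM. It was 2.04% between 20 and 40 CPM and 0.977% between 40 and 80 CPM. From 80 CPM upwards it was 0.18%, or 4 of 2224 regions. Members were thus rarest among the most accessible regions of NK cells. The rule with the cell types exchanged fell likewise with the lowest ILC1 level. Its share was 1.45% at 3 to 5 CPM, 0.105% at 40 to 80 CPM and 0.0911% from 80 CPM upwards. The fall is therefore not particular to the NK side, and the rule itself uses these levels.

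The same rule with the cell types exchanged was met by 284 regions, 0.885% of the 32080 regions with a lowest ILC1 level of at least 3 CPM. At lower ratios the cell types were nearly even. Some regions reached 3 CPM in all libraries of one cell type and did not overlap with the other. Of these, 12352 were higher in NK cells and 13131 in ILC1s. They were 36.9% and 40.9% of all regions that reached 3 CPM in the cell type. Without this minimum, edgeR called 15.6% and 15.9% of all tested regions higher in NK cells and in ILC1s. At a ratio of at least 2, the numbers were 3843 and 3548 (11.5% and 11.1%). They separated at a ratio of at least 4, with 1895 and 1068 regions (5.66% and 3.33%). At a ratio of at least 16 they were 348 and 66 (1.04% and 0.206%). The number on the NK side was 3.21 times that on the ILC1 side at the ratio of 8.

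**Figure D2:**
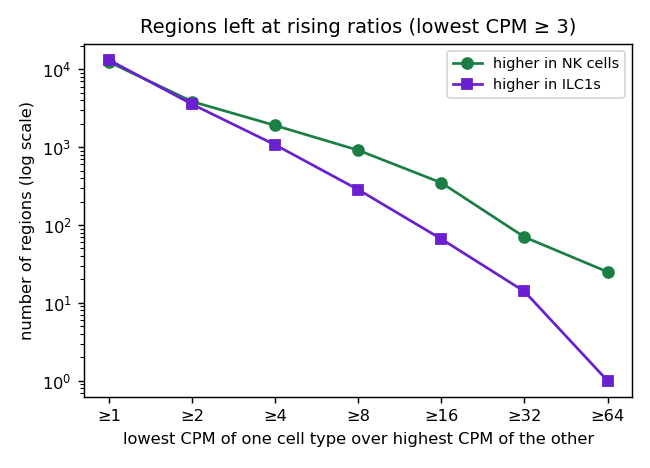
Number of regions (log scale) whose lowest CPM in one cell type is at least 3 and at least the given multiple of the highest CPM in the other. The lines for NK cells (green) and ILC1s (violet) start together, at 12352 and 13131 regions, and part from a ratio of 4 upwards.

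The size of this imbalance rested partly on 1 library. Without the middle ILC1 library, the numbers were 1047 and 592, or 1.77 times as many on the NK side. Group means in place of the lowest and highest library gave 1820 and 1004 regions, or 1.81 times. Without each of the other libraries in turn the multiple was between 2.57 and 3.39. With every library thinned to the smallest total it was 3.02, with 862 and 285 regions. More regions were nearly exclusive to NK cells in each of these settings, by a number that differed between them.

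All 911 members were called more accessible in NK cells by the quasi-likelihood test of edgeR over all regions (adjusted p-value under 0.05 and fold change over 1.5), which called 16576 of the 106376 tested regions (15.6%) in this direction and 16918 (15.9%) in the other. DESeq2 called all 911 as well. In this direction it called 13.4% of the 85768 regions that received an adjusted p-value, or 10.6% of all regions. These calls use the contrast that chose the members and are no separate evidence. The members were 5.5% of all regions called higher in NK cells, whereas the exchanged rule covered 1.68% of those called higher in ILC1s. The log2 fold change of members, NK cells over ILC1s, had a median of 4.63 and lay between 3.82 and 5.85 from the 10th to the 90th percentile. For members with no or few ILC1 fragments the fitted value depends on the prior count of the fit. The median absolute log2 fold change over all tested regions was 0.84.

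A low level was left in ILC1s. Summed over all members, the ILC1 libraries reached 4.66%, 4.12% and 4.63% of the mean NK level, a mean of 4.47% ± 0.304 (SD, n = 3). The rule bounds this value from above but not from below. Conversely, the regions of the exchanged rule kept 6.11% ± 0.524 (SD, n = 3) of their ILC1 level in the NK cell libraries. Among members, the remaining share was 3.67% ± 0.354 for those of 3 to 5 CPM and 4.09% ± 0.48 for those of 5 to 10 CPM. It was 4.47% ± 0.333 for 10 to 20 CPM, 4.65% ± 0.268 for 20 to 40 CPM and 5.03% ± 0.0923 for 40 to 80 CPM (SD over the 3 ILC1 libraries throughout). The rule acts on these same values, and at low levels it admits few whole fragments in ILC1s, so nothing is read from the order of the classes. The classes of the exchanged rule were ordered likewise, from 4.83% at 3 to 5 CPM to 7.99% at 40 to 80 CPM. Above 80 CPM, the 4 members were at 3.63% ± 0.674 (SD, n = 3) and the 2 regions of the exchanged rule at 9.3%.

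**Figure D3:**
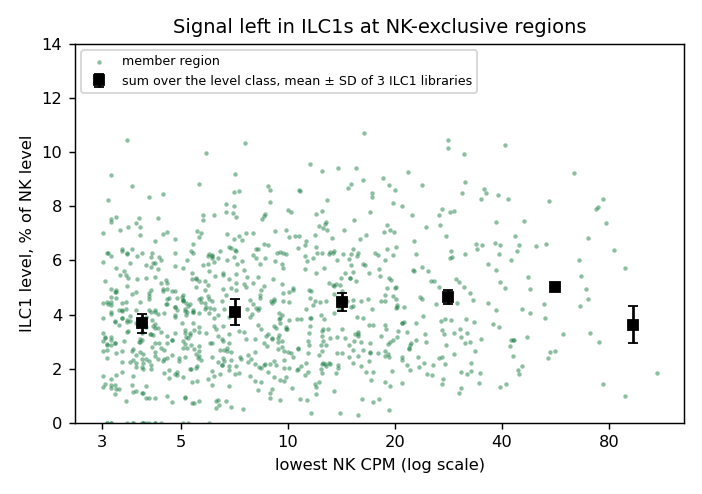
Level in ILC1s as a percent of the level in NK cells (vertical axis) for each of the 911 members against its lowest NK level in CPM (horizontal axis, log scale). Black squares give the sum over a class of level, as mean ± SD of the 3 ILC1 libraries. The squares stay between 3.63% and 5.03%, while single members spread from 0% to 10.7%.

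Single members spread more widely than these averages. For the 170 members with a lowest NK level of at least 20 CPM, the pooled ILC1 level was between 0.985% and 10.5% of the NK level, with a median of 4.26% and a range of 1.88% to 7.97% from the 10th to the 90th percentile. The lowest share belonged to peak_105170, whose 17 ILC1 fragments give an exact 95% Poisson interval of 0.574% to 1.58%. This interval does not allow for its choice as the lowest of the 170. Only this member was under 1%, and 19 were under 2%. The 170 members held a median of 27.5 ILC1 fragments, and 9 of them held fewer than 10, so the low shares of single members are imprecise. For the ILC1 level itself, not the share, Pearson's r of log2(CPM + 1) across the 170 regions was 0.744, 0.798 and 0.743 for the 3 pairs of ILC1 libraries. This is a description only, since the rule ties the highest ILC1 level allowed to the NK level of each member. The middle ILC1 library had the highest ILC1 level, or the first of equal ones in order of depth, in 26.3% of all members, the deepest in 35.2% and the shallowest in 38.4%.

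Each library was also read without a part in the choice. The rule was applied to the other 5 libraries, and the regions found were examined in the library left out. Without the deepest, middle or shallowest NK cell library, 1080, 936 and 1030 regions passed. The members are by construction those that also met the bounds in the library left out, and they were 84.4%, 97.3% and 88.4% of these regions. In the library left out, the summed level of all regions so chosen was 93.9%, 105% and 95.9% of that in the other NK cell libraries. Without an ILC1 library, 1090, 1047 and 1086 regions passed, and 83.6%, 87% and 83.9% of them met the ratio of 8 in the library left out. A ratio of 4 was met there by 98%, 98.8% and 98.1%. In ILC1 libraries that took no part in the choice, the remaining level was 5.88%, 5.06% and 5.84% of the NK level, above the 4.66%, 4.12% and 4.63% found for the members themselves.

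The NK cell libraries differed more at members than at other regions of like level up to 40 CPM, and only slightly more at 40 to 80 CPM. The coefficient of variation over the NK cell libraries had a median of 13.7% among members. At 3 to 5 CPM it was 19.8% for members and 15.4% for other regions of the same lowest NK level. It was 12% and 9.82% at 10 to 20 CPM, 8.55% and 7.46% at 20 to 40 CPM, and 6.5% and 5.83% at 40 to 80 CPM. Relative to sampling noise, the chi-square per degree of freedom between NK cell libraries was 2.91 for members and 1.84 for other regions at 3 to 5 CPM. It was 4.34 and 2.59 at 10 to 20 CPM, and 3.88 and 2.96 at 20 to 40 CPM. At 40 to 80 CPM it was 3.53 and 3.48, and at the 4 members above 80 CPM the order was turned, with 2.69 and 8.14. Both measures use the NK levels on which the rule acts, so they are a description only.

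The ranks of the deepest and the middle NK cell library at members differed from those at other regions, and those of the shallowest differed less. The deepest NK cell library had the lowest of the NK levels in 43.8% of members, compared with 28% of other regions that reached 3 CPM in all NK cell libraries. It had the highest level in 24% of members and 40.6% of the others. The middle NK cell library had the highest level in 41.5% of members against 28.7%, and the lowest in 12.3% against 26.3%. The shallowest was the highest in 34.5% of members against 30.7%, and the lowest in 43.9% against 45.6%. The members with the largest spread had 9.35, 5.5 and 3.28 CPM and 3.74, 5.59 and 9.97 CPM in the NK cell libraries, so they ran in opposite orders.

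The members were scattered over the whole numbering of regions. With the numbers cut into 20 equal blocks, each block held between 24 and 62 members. They nevertheless lay close together more often than their share of the table. Of the 1822 places next to a member, 242 (13.3%) were taken by another member, compared with 0.844% of all regions. At a distance of 5 numbers the share was 4.28%, at 10 numbers 2.09% and at 50 numbers 0.659%. The file does not state that the numbers follow position in the genome. Across all regions, the log2 fold changes of neighbouring numbers correlated with Pearson's r = 0.268 at a distance of 1, 0.0793 at 10 and -0.0012 at 100, over regions of the same libraries.

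Regions numbered next to a member leaned the same way without having met the rule themselves. Of the 1540 non-members at a distance of 1, 49.5% were called higher in NK cells by edgeR, against 15.6% of all tested regions, and 5.78% were called higher in ILC1s, against 15.9%. Their median log2 fold change was 1.16. At a distance of 5 the shares were 29.5% and 9.14%, at 10 they were 23% and 12.9%, and at 50 they were 16% and 16.4%. How often a region can be called depends on its fragments, so the shares were also set beside regions of like depth. Of neighbours with 20 to under 100 fragments over the 6 libraries, 61.2% were called higher in NK cells, compared with 18.9% of all non-members of that depth. With 100 to under 500 fragments the shares were 68.4% and 27.9%, and with at least 500 fragments 51.4% and 13.9%. For the 309 neighbours with under 20 fragments they were 5.18% and 1.15%. From the lowest to the highest class of depth, 3.88%, 7.63%, 7.77% and 2.78% of neighbours were called higher in ILC1s. The shares of all non-members were 5.95%, 20.8%, 26% and 11.8%. Whether fragments that span adjacent regions were counted in both is not given in the sources used here.

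**Figure D4:**
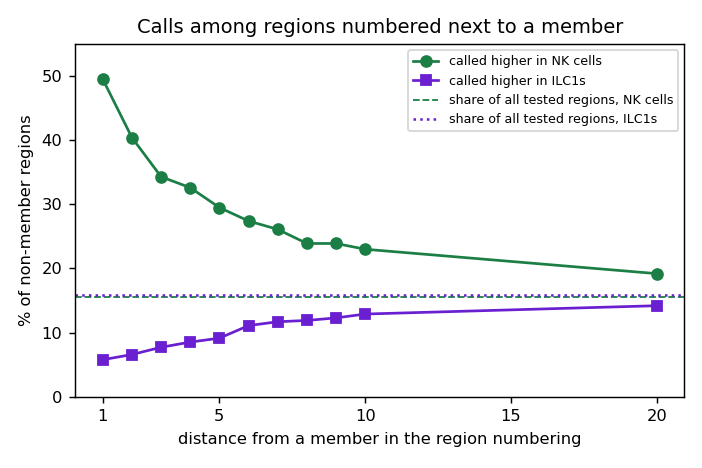
Percent of non-member regions called higher in NK cells (green) or in ILC1s (violet) by edgeR, against their distance from a member in the region numbering. Dashed and dotted lines are the shares over all tested regions, 15.6% and 15.9%. The green line falls from 49.5% at a distance of 1 to 19.2% at 20, and the violet line rises from 5.78% to 14.2%.

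Seen from the members, 342 (37.5%) had regions called higher in NK cells on both sides, 353 (38.7%) on 1 side and 216 (23.7%) on neither, compared with 4.49%, 21.7% and 73.8% of all regions. At least 1 neighbour called higher in ILC1s was present for 84 members (9.22%), compared with 26.8% of all regions. Neighbours that are members themselves, and so called higher in NK cells by their choice, are included in these counts. The regions of the exchanged rule had neighbours of the opposite kind. Of the places next to them, 16.5% were taken by another such region, and of the remaining 458 regions 59.6% were called higher in ILC1s and 2.84% in NK cells.

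Of the members, 207 (22.7%) stood in 86 runs of at least 2 consecutive numbers. When gaps of up to 5 numbers were allowed, 337 members (37%) stood in 125 groups and 574 were alone. The 175 members in groups of 3 or more had a median lowest NK level of 9.85 CPM (interquartile range 6.22 to 23), and those alone had 7.34 CPM (4.47 to 14). The level left in ILC1s was 4.11% ± 0.335 of the NK level in groups and 4.65% ± 0.242 for members alone (SD over 3 ILC1 libraries). The largest groups held 9, 9 and 8 members within 11, 22 and 10 numbers. In the first, the summed levels were 150, 167 and 130 CPM in NK cells and 4.05, 3.6 and 4.04 CPM in ILC1s. In the second they were 143, 146 and 130 CPM against 6.22, 3.28 and 4.75 CPM, and in the third 223, 225 and 197 CPM against 8.67, 8.19 and 13.2 CPM. Of the 2, 13 and 2 other regions within these groups, 2, 6 and 2 were called higher in NK cells and 0 in ILC1s.

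The longest run of consecutive numbers comprised 6 members, with peak_105170 as the fourth. Summed over the run, the levels were 163, 178 and 170 CPM in NK cells and 2.17, 2.46 and 2.46 CPM in ILC1s. The first member had 24.5, 24.8 and 22 CPM in NK cells and 0.723, 0.492 and 0.176 CPM in ILC1s. The second had 8.62, 11.2 and 10.7 CPM against 0.145, 0.164 and 0.352 CPM, and the third 3.82, 5.14 and 3.52 CPM against 0.289, 0 and 0.176 CPM. After peak_105170, the fifth had 27.3, 32.4 and 30 CPM against 0.289, 0.819 and 0.352 CPM and the sixth 10, 8.87 and 10.7 CPM against 0.145, 0 and 0.176 CPM. The NK levels within the run lay between 3.52 and 95.5 CPM.

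The surroundings of this run were mixed. Places are counted from 1 at the first member of the run. The region before it, at place 0, had 69.3, 69.8 and 71.2 CPM in NK cells and 23.7, 26.9 and 25.5 CPM in ILC1s, so it was open in both and higher in NK cells (log2 fold change 1.53). The region after it had 22.4, 21.5 and 21.7 CPM against 2.89, 2.62 and 2.29 CPM (log2 fold change 3.12), which missed the ratio of 8. At places -3, -2 and -1 the log2 fold changes were 3.21, 2.42 and 2.84, above that at place 0. Beyond place 7, the regions at places 8 and 9 had few fragments and were not called, with log2 fold changes of 0.62 and 0.81, and place 10 was called higher in NK cells again at 1.13. Another member lay 6 numbers before the start of the run. The fifth region after the run was higher in ILC1s, with 7.23, 4.96 and 7.51 CPM in NK cells and 11.4, 12 and 14.1 CPM in ILC1s (log2 fold change -0.87). The sixth was about equally open in both, with 142, 147 and 169 CPM in NK cells and 124, 148 and 137 CPM in ILC1s.

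**Figure D5:**
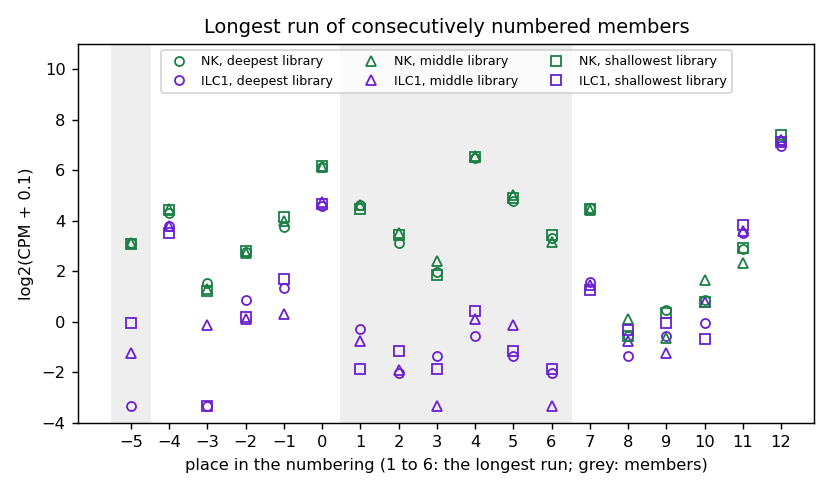
Level of each library, as log2(CPM + 0.1), at the longest run of consecutively numbered members (places 1 to 6) and at 6 regions on either side. Grey bands mark members, green symbols NK cell libraries and violet symbols ILC1 libraries. NK and ILC1 symbols are far apart at places 1 to 6, come closer at places 0 and 7, and overlap at places 8, 9 and 12.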

How the data were processed

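ATAC-seq was performed on 3 libraries of liver NK cells and 3 of liver ILC1s. To make the deposited counts, the authors used Trimmomatic for trimming and Bowtie2 for alignment to GRCm38 (mm10 in the labels). Fragments of mitochondrial origin, poor quality, duplication or blacklisted loci had been discarded. Peaks had been called for single libraries with MACS, joined where they overlapped, and fragments counted in the joined regions with featureCounts. These counts are raw and neither normalized nor pooled. A shift for the Tn5 offset is not given in the sources used here. Each column was assigned to its cell type by name, not to a numbered sample.

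CPM used column totals. The test across regions was the quasi-likelihood fit of edgeR 4.0.16 in R 4.3.3 (TMM, legacy = FALSE, cell type as the only term, Benjamini-Hochberg adjustment) on the 106376 regions with at least 1 fragment. DESeq2 1.42.0, other scalings, filters, thresholds, thinning and left-out libraries were alternatives, and legacy = TRUE and the exchanged rule on group means were added after the data were seen. Simulated counts with known changes were used to check the fit. Intervals cover counting error only. Members and settings were chosen with earlier results of these data known. Regions were named by level: the 2 members with the highest lowest-NK level by number, and others by rank (level, absence of ILC1 fragments, nearness to a threshold, longest run, spread over NK cell libraries).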

Additional observations from a re-analysis of the deposited data

How the results depend on the processing

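The number of members, 911, was 954 with TMM totals, 925 with size factors of DESeq2, 862 after thinning, 1282 with a lowest NK level of 1 CPM, and 936 to 1090 on omission of any 1 library. Omitting a library or lowering a threshold can only add regions, so all 911 members stay in those settings. The number moved most with the thresholds: 1895 at a ratio of 4, 348 at a ratio of 16, 388 at a lowest NK level of 10 CPM and 1820 with group means. The exchanged rule gave 284 regions, 1004 with group means (an alternative added after the data were seen) and 320 to 592 on omission of any 1 library. Here too, omission of a library can only add regions. The 592 came without the middle ILC1 library, and the cause was not tested. All 911 members were called higher in NK cells in each of the 11 alternatives, which were refits or the main fit without the fold change bound. They use the contrast that chose the members and called between 10.6% and 18.4% of all regions in this direction. Of the 1540 neighbours at a distance of 1, 763 (49.5%, against 15.4% of all regions) were called higher in NK cells, 640 to 722 on omission of any 1 library, 766 (49.7% against 15.5%) with legacy = TRUE, 616 (40% against 10.6%) with DESeq2 and 570 (37% against 11.3%) with filterByExpr. At a distance of 10 they were 407 of 1773 (23%). The level left in ILC1s was 4.47%, 4.51% with TMM totals and 8.55% for the regions of the ratio of 4. No paired analysis was possible because the column endings, which tell repeated column names apart in both cell types, do not match the replicate numbers of the samples, and a block on these endings was not fitted. Counts limit the precision in ILC1s, where no library held more than 3 fragments for 437 of the 911 members.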
